A study of Arabidopsis thaliana with 39 samples.

Results

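The 12 arrays described here come from OZ2, one of the 2 parts into which the oscillation zone of the Arabidopsis thaliana root tip was divided, and they stand at the start and at the end of that part's stretch of the submitters' periodic order. Members were chosen by position alone: 6 arrays at positions 21 to 26, called the first positions, and 6 at positions 34 to 39, called the last positions, of 39 arrays in all. By title the first are OZ2-4, OZ2-6, OZ2-13, OZ2-14, OZ2-15 and OZ2-23, and the last are OZ2-1, OZ2-21, OZ2-36, OZ2-38, OZ2-39 and OZ2-40. The other arrays are 7 of OZ2 at middle positions and 20 of OZ1. All plants were of ecotype Columbia, carried the auxin reporter DR5-GUS according to the source label, and were 5 days old on standard media, so the labels separate the 2 groups by position alone. Each array holds biotin-labelled total RNA of 1 dissected sample on the Affymetrix ATH1 chip. The series text speaks of individual roots, no treatment is given, and no title number occurs in both groups. The labels contradict each other on whether OZ2 is the upper or the lower part, and no label says what the order of arrays was based on. If it was made from these arrays, differences along it are not independent of it.

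The oscillation zone is where groups of cells in the growing root gain the competence to form lateral roots. Auxin signalling there, read with the DR5 reporter, rises and falls in time, and cells that pass through a peak leave the zone as a prebranch site. In the same stretch of root, cells stop dividing and elongate, and epidermal cells begin to form hairs, so an array of the zone reads cell division, wall loosening and hair growth together. A dissected sample is a mixture, and in it fewer cells of a type and less RNA per cell cannot be told apart.

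One array went against its label. OZ2-38, at position 38, correlated with the mean of the 20 OZ1 arrays at r = 0.905 and with the mean of the other 5 last-position arrays at r = 0.637, taken across the 13627 tested probe sets, which are not independent replicates. For the other 11 arrays the correlation with OZ1 lay between 0.689 and 0.765. On a scale set at 0 by the OZ1 mean and at 1 by the mean of the OZ2 middle arrays, neither of which used any of the 12 arrays, the first positions lay between 0.652 and 0.893 and the last positions between 0.611 and 0.822, except OZ2-38 at -0.312. The group means on this scale were 0.773 ± 0.088 (SD, n = 6) and 0.575 ± 0.441 (SD, n = 6), a difference of -0.198 (two-sided exact permutation test over arrays, p = 0.353). Without OZ2-38 the difference was -0.0207 (exact p = 0.701), so the 11 other arrays of the 2 groups overlapped on it. Whether this array was mislabelled or dissected differently was not tested. Values without OZ2-38 stand beside those of all 12 arrays.

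**Figure D1:**
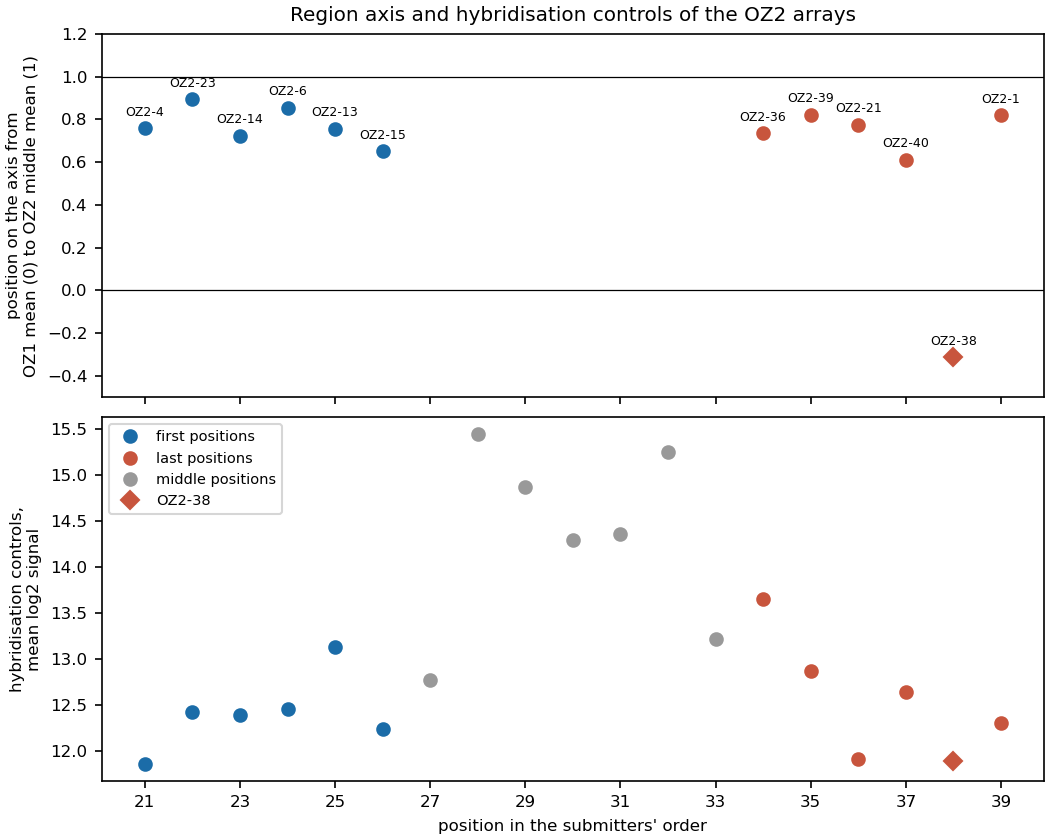
Upper panel: each of the 12 arrays by its position in the submitters' order and its place on the scale with OZ1 at 0 and the OZ2 middle arrays at 1. Lower panel: mean log2 signal of the hybridisation control probe sets for all 19 OZ2 arrays. OZ2-38 lies at -0.312, apart from the other 11 arrays, which lie between 0.611 and 0.893, and the controls are higher at the middle positions than in most arrays of either end.

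The 2 ends of the order did not differ in their technical levels beyond the spread between arrays. The hybridisation controls, bacterial and phage transcripts added to every sample, had a mean log2 signal of 12.41 ± 0.41 (SD, n = 6) at the first and 12.54 ± 0.67 (SD, n = 6) at the last positions (difference 0.13, two-sided exact permutation p = 0.703). The middle arrays had a median of 14.4 against 12.4 and 12.5 at the first and last positions. The median signal of an array, over all its probe sets, was 82.2 to 103 at the first and 61.3 to 114 at the last positions (exact p = 0.630). The arrays were scanned on days numbered 1 and 3, with 3 first and 2 last arrays on day 1 and 3 first and 4 last arrays on day 3. OZ2-38 and OZ2-1 are the 2 last arrays of day 1, so values for that day alone rest in part on OZ2-38.

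The comparison asked which transcripts differ between the start and the end of the order within OZ2. No probe set passed. Of 13627 tested, 0 (0%) had a limma adjusted p under 0.05 (the smallest was 0.786), and 856 (6.28%) had an unadjusted p under 0.05, of which 376 (2.76%) had the higher mean at the last and 480 (3.52%) at the first positions. Without OZ2-38 the counts were 0 (0%) and 813 (5.97%), the latter with 337 (2.47%) higher and 476 (3.49%) lower, with a smallest limma adjusted p of 0.800. In 25 probe sets (0.183%) the 6 last arrays did not overlap with the 6 first arrays, 10 (0.0734%) of them higher and 15 (0.11%) lower at the last positions. Without OZ2-38, which leaves 5 arrays against 6, there were 43 (0.316%), 19 (0.139%) higher and 24 (0.176%) lower.

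What the arrays could and could not resolve is shown by the intervals. The median standard error of a log2 difference was 0.48, which gives a 95% interval of 1.01 to either side. In 3007 probe sets (22.1%) the whole interval lay within a 2-fold difference, and in 10107 (74.2%) within a 4-fold difference. For the rest, differences of 4-fold remain inside the interval, and the missing calls do not show that these transcripts were equal. Without OZ2-38 the shares were 28.1% and 76.0%. The group means correlated at r = 0.939 across probe sets (0.947 without OZ2-38), and 1587 probe sets (11.6%) differed by more than 2-fold between the means.

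**Figure D2:**
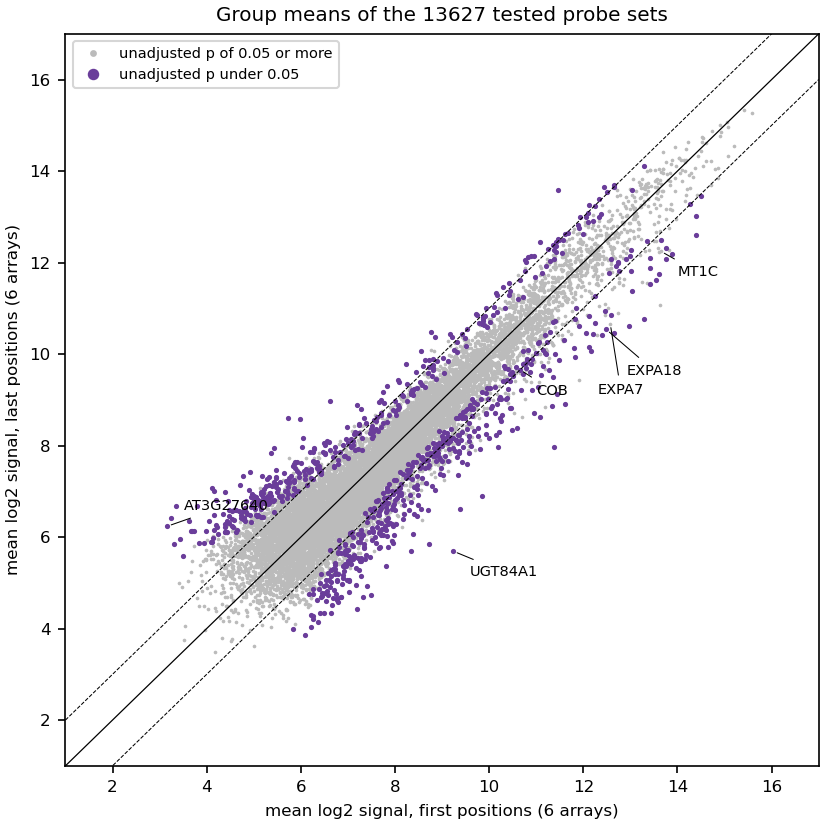
Mean log2 signal at the last positions (vertical axis, 6 arrays) against the first positions (horizontal axis, 6 arrays) for the 13627 tested probe sets, with the line of equality and dashed lines at a 2-fold difference. Purple points are the 856 with an unadjusted p under 0.05, none of which passed after adjustment. Among the labelled genes UGT84A1 lies farthest below the line.

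The last positions were the more varied group, and much of that came with 1 array. The median SD of the log2 signal over probe sets was 0.643 among the first arrays and 0.849 among the last, and 0.699 without OZ2-38. The middle arrays had 1.32 and the OZ1 arrays 1.03. The last arrays had the larger SD in 65.1% of probe sets and, without OZ2-38, in 55.1%. OZ2-38 lay outside the range of the other 11 arrays in 5442 probe sets (39.9%), against 10.9% to 23.4% for each of those 11. By more than 1 log2 unit it did so in 2027, and in 99.0% of these it lay on the side of the OZ1 mean. OZ2-36 came next, with 23.4% and 596.

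OZ2-21 and OZ2-1 were closer to the first positions than to their own group. The median correlation of OZ2-21 was 0.829 with the 6 first arrays and 0.805 with the other 4 last arrays, OZ2-38 left out. OZ2-1 had 0.811 and 0.780. OZ2-36 (0.711 and 0.739), OZ2-39 (0.776 and 0.791) and OZ2-40 (0.788 and 0.792) had the higher value with the last arrays. So did 1 first array, OZ2-15, with 0.793 for the other first arrays and 0.798 for the last, OZ2-38 left out. Among the 6 last arrays, OZ2-21 lay nearest the first-position mean in 22.8% of probe sets and OZ2-1 in 21.0%, against 17.3% for OZ2-40, 15.8% for OZ2-39, 12.1% for OZ2-36 and 10.9% for OZ2-38. OZ2-1 was scanned on day 1, and the 4 last arrays it was compared with, OZ2-21 among them, were all scanned on day 3. These are descriptions of single arrays with no test.

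Lateral root genes overlapped between the ends, and none passed. The same held for nearly all probe sets, since 25 of 13627 (0.183%) did not overlap and 0 passed. LBD16, a transcription factor that acts downstream of auxin in lateral root initiation, had log2 signals of 6.74 to 7.75 (median 7.05) at the first and 5.84 to 8.02 (median 7.10) at the last positions. The lowest of these was OZ2-38 and the highest OZ2-36, and the groups overlapped throughout. The log2 difference was -0.00094 ± 0.39 (SE), with a 95% interval from -0.83 to 0.82 (unadjusted limma p = 0.998), and 0.26 ± 0.36 without OZ2-38. With OZ2-38 included, a difference of 2-fold lies outside the interval for this gene. No interval is given without OZ2-38, its lowest array, so whether a 2-fold difference would lie outside it is not assessed for the other arrays. At the middle positions LBD16 reached a median of 8.44 (3.61 to 9.35), and no test of the middle arrays was made. PUCHI, an AP2-type factor that limits divisions in young primordia, went from 4.04 to 6.89 (median 6.19) at the first and from 4.92 to 7.01 (median 5.61) at the last positions, a difference of 0.06 ± 0.66 (SE), interval -1.33 to 1.46, and of -0.17 ± 0.71 without OZ2-38, its highest last array. RALFL34, a secreted peptide that acts in lateral root initiation, had a difference of 0.85 ± 0.50 (SE, unadjusted limma p = 0.108) that was 0.41 without OZ2-38, the array in which it was highest (11.30). Of these 3 tested genes of the lateral root initiation list, which matched 4 genes on the array, 0 passed.

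Auxin response genes overlapped as well. WAG2, a protein kinase that steers the polar placement of PIN auxin exporters, had log2 signals of 6.68 to 9.42 (median 8.79) at the first and 7.19 to 9.09 (median 8.54) at the last positions. Its log2 difference was 0.09 ± 0.48 (SE), with an interval from -0.92 to 1.10, and 0.34 ± 0.44 without OZ2-38, its lowest last array. HAT2, an auxin-induced homeodomain factor, differed by 0.02 ± 0.51 (SE), and by 0.0052 without OZ2-38. GH3.17, which conjugates auxin to an amino acid, differed by 1.10 ± 0.79 (SE, unadjusted limma p = 0.183), and by 0.74 without OZ2-38. Of 4 tested members of the auxin list 0 passed, and their median log2 difference was 0.06, against -0.01 over the 7527 named genes tested. Leaving out 1 array moved that median widely, to 0.31 without OZ2-38 (4 of 4 higher) and to -0.15 without OZ2-23 (3 of 4 lower).

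Root hair genes were brighter at the first positions, without passing the test. EXPA7, an expansin that loosens the wall of growing hairs, had log2 signals of 12.08 to 13.33 (median 12.51) at the first positions. At the last positions 5 arrays lay between 11.28 and 12.98, and OZ2-38 at 3.93, below the OZ1 median of 7.33. The log2 difference was -1.90 ± 1.10 (SE, unadjusted limma p = 0.101) with OZ2-38 and -0.56 ± 0.31 (p = 0.0898) without it, so 1 array accounted for most of its size. EXPA18, its close relative in hair cells, had 11.67 to 13.15 (median 12.59) at the first and 7.08 to 12.73 (median 10.79) at the last positions. OZ2-36, OZ2-39 and OZ2-40 (9.54, 10.93 and 10.65) and OZ2-38 lay below every first array, while OZ2-21 and OZ2-1 (12.73 and 12.29) lay among them. The log2 difference of EXPA18 was -1.95 ± 0.70 (SE, unadjusted limma p = 0.0133) and -1.26 ± 0.45 (p = 0.0112) without OZ2-38. It was -1.24 on scan day 3 alone and -3.09 on day 1 alone, where OZ2-38 is 1 of 2 last arrays. SCN1, a regulator that confines hair outgrowth to 1 site per cell, differed by -0.47 ± 0.28 (SE), and by -0.45 without OZ2-38. The 3 tested genes had a median difference of -1.90, and of -0.56 without OZ2-38, and 0 passed.

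OZ2-38 also stood apart in 2 transcripts that most OZ2 arrays held above the OZ1 median. MT1C, a metallothionein, had 12.58 to 15.36 (median 13.49) at the first positions, 12.67 to 14.83 in 5 last arrays and 5.83 in OZ2-38. Its log2 difference was -1.39 ± 1.11 (SE) with and -0.11 ± 0.48 without that array. ATG8E, which is anchored in the membrane of forming autophagosomes, had 10.04 to 11.34 (median 10.24) at the first and 8.81 to 10.99 in 5 last arrays, with OZ2-38 at 6.41, near the OZ1 median of 6.09. Its log2 difference was -1.14 ± 0.60 (SE, unadjusted limma p = 0.0768) and -0.54 ± 0.37 without OZ2-38. ATG8H differed by -1.31 ± 0.50 (SE, unadjusted limma p = 0.0184) and by -0.83 (p = 0.0212) without OZ2-38. Of 6 tested ATG8 genes 5 had the lower mean at the last positions (median -0.32, and -0.12 without OZ2-38), and 0 passed. On scan day 3 alone, which leaves out OZ2-38, the median was 0.042.

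**Figure D3:**
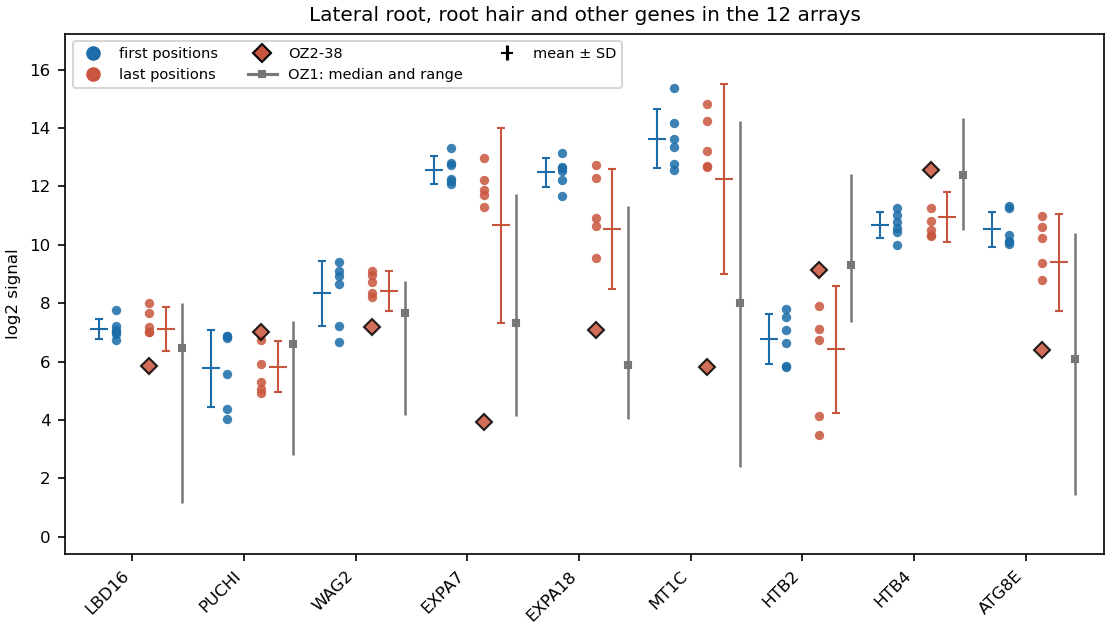
Log2 signal of 9 genes in the 6 first (blue) and 6 last (red) arrays, with each group's mean ± SD beside the points, OZ2-38 as a diamond and the median and range of the 20 OZ1 arrays in grey. OZ2-38 lies at 3.93 for EXPA7 and 5.83 for MT1C, within the OZ1 range for MT1C and just below it for EXPA7, while LBD16, PUCHI and WAG2 overlap between the groups.

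Genes of dividing cells did not separate the ends. HTB4, a histone H2B gene, had log2 signals of 10.00 to 11.26 (median 10.68) at the first and 10.31 to 12.55 (median 10.66) at the last positions, the highest being OZ2-38. Its log2 difference was 0.28 ± 0.37 (SE), and -0.036 ± 0.27 without OZ2-38. HTB2, another H2B gene, had 5.80 to 7.81 at the first and 3.48 to 9.12 at the last positions, a log2 difference of -0.36 ± 0.82 (SE). OZ2-38 was its highest last array too, and without it the difference was -0.90 ± 0.74. AUR2, an aurora kinase of mitosis, differed by -1.26 ± 0.67 (SE, unadjusted limma p = 0.0791), and AUR1, its paralogue, by 0.90 (p = 0.128). Without OZ2-38 these were -1.40 and 0.69. The 4 tested histone H2B genes had a median difference of 0.37 that was 0.06 without OZ2-38, and the 4 cell division genes one of 0.30 and 0.04. None of these 8 passed. Of 7 tubulin genes all 7 had the lower mean at the last positions (median -0.30, and -0.41 without OZ2-38), the largest difference being that of TUA1 (-0.78), and 0 passed. Under quantile normalization 6 of the 7 were lower (median -0.28), and on scan day 1 alone the median was 0.26. It was -0.17 without OZ2-36.

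Cell wall families lay on both sides of 0. Of 9 tested GH9 endoglucanases, which cut wall glucans, 8 had the lower mean at the last positions, with a median log2 difference of -0.65 and 0 passing. This median rested on single arrays, since it was -0.088 without OZ2-21 (6 of 9 lower), -0.34 without OZ2-14, -0.39 without OZ2-15, -0.95 without OZ2-38 and -1.15 without OZ2-13. GH9C1 had 11.22 to 12.39 at the first and 6.48 to 12.15 at the last positions (difference -1.68 ± 0.72 SE, unadjusted limma p = 0.0328, and -0.95 without OZ2-38, its lowest array). GH9B8 differed by -1.57 ± 0.71 (SE, p = 0.0405), and by -1.74 without OZ2-38. The 10 expansins divided into 5 higher and 5 lower (median -0.16, -0.10 without OZ2-38 and 0.25 without OZ2-21). The 7 xyloglucan endotransglucosylases had a median of -0.17 that turned to 0.41 without OZ2-38. Of 18 wall acetylation genes 13 had the lower mean (median -0.33), and without OZ2-38 12 did (median -0.096). TBL39 of this family differed by 1.22 ± 0.37 (SE, unadjusted limma p = 0.00439), and by 1.02 without OZ2-38. Its log2 signal was 10.26 to 11.34 at the first and 10.98 to 13.01 at the last positions, so the groups overlapped.

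COB had the smallest unadjusted p among genes with a symbol. It encodes COBRA, a cell surface protein that guides cellulose deposition so that root cells elongate in 1 direction. Its log2 signal was 10.30 to 11.13 (median 10.60) at the first and 9.05 to 10.42 (median 9.52) at the last positions. OZ2-21 (10.42) was the 1 last array within the range of the first group, and the other 5 lay below all first arrays. The log2 difference was -0.99 ± 0.28 (SE), with a 95% interval from -1.57 to -0.40 (unadjusted limma p = 0.00244, limma adjusted p = 0.786). Without OZ2-38 it was -0.87 ± 0.25 (p = 0.00301). Within scan days it was -0.75 on day 3 and -1.30 on day 1.

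The remaining genes with the smallest p carry no name beyond the locus. Among the 8 with the higher mean at the last positions, AT3G27640 had 2.54 to 4.53 (median 2.93) at the first positions, below the filter level of 5.69, and 5.06 to 6.74 (median 6.45) at the last. The groups did not overlap, and the difference was 3.07 ± 0.74 (SE, unadjusted limma p = 0.000693) and 3.07 ± 0.87 without OZ2-38. Signals this low are poorly measured, so the size is uncertain. It was 1.86 on the log2(value + 16) scale, and the gene was not tested under the filter on the 12 arrays. The middle (median 6.79) and OZ1 arrays (median 7.01) had the level of the last positions. AT1G61740 was read at brighter signals, 7.44 to 8.17 at the first and 8.27 to 10.34 at the last positions, again with no overlap. Its log2 difference was 1.43 ± 0.35 (SE, unadjusted limma p = 0.000895) and 1.45 ± 0.36 without OZ2-38. AT3G07030 also separated the groups (6.86 to 7.68 and 7.97 to 9.77, difference 1.26 ± 0.34 SE, and 1.03 without OZ2-38). The other 5 were AT5G06190 (1.30), AT1G74490 (2.96), AT5G48830 (2.42), AT5G09240 (2.34) and AT1G52530 (2.13), whose groups overlapped, and 4 of them, all but AT5G06190, had first-position means below the filter level.

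Among the 8 with the lower mean, AT2G32020 had the smallest p. It had log2 signals of 9.49 to 10.98 (median 9.81) at the first and 6.62 to 9.35 (median 8.20) at the last positions, with no overlap and a difference of -1.84 ± 0.44 (SE, unadjusted limma p = 0.000685), and -1.68 ± 0.42 without OZ2-38. OZ2-21 (9.35) and OZ2-1 (9.25) were the last arrays closest to the first group. AT5G64230 (7.29 to 8.34 and 5.55 to 7.18, difference -1.57 ± 0.39 SE), AT5G23610 (7.53 to 8.74 and 5.49 to 7.33, difference -1.37 ± 0.37 SE) and AT1G70250 (5.94 to 7.34 and 3.24 to 5.85, difference -2.15 ± 0.59 SE) did not overlap either. AT5G41620 (-2.76), AT1G27690 (-1.95) and AT1G30130 (-1.18) did. The last-position means of AT1G70250 (4.52), AT5G41620 (4.73) and AT1G27690 (5.28) lay below the filter level of 5.69, so the sizes of these differences are uncertain. Of the 16 genes picked by smallest p, OZ2-21 was the last array nearest the first-position mean in 9. Without OZ2-38 the difference stayed within 1.5 times that of all 12 arrays in each of the 16. In all 16 the direction stayed without OZ2-38 and under every other setting in which the gene was tested, and in none did the adjusted p pass. As the genes were picked by smallest p in these same arrays, a stable size and direction is no separate support for them.

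**Figure D4:**
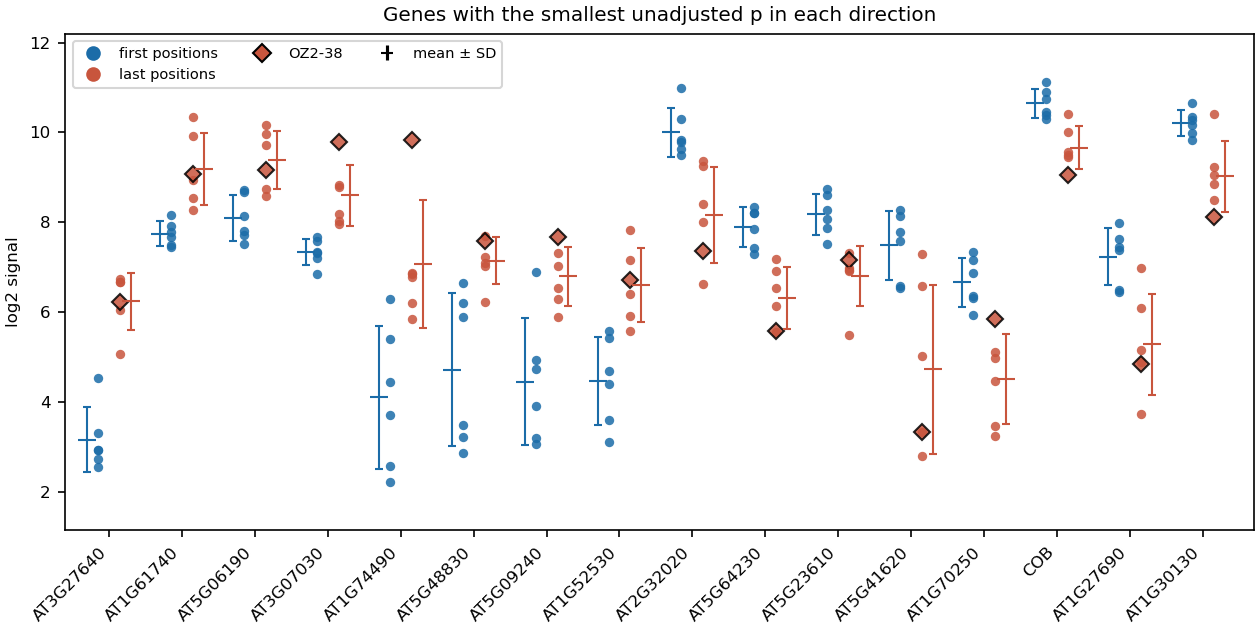
Log2 signal of the 16 genes with the smallest unadjusted p, 8 with the higher and 8 with the lower mean at the last positions, in the 6 first (blue) and 6 last (red) arrays, with each group's mean ± SD and OZ2-38 as a diamond. In 7 of the 16 the groups do not overlap, against 25 (0.183%) of all 13627 tested probe sets, but a choice by smallest p favours such genes. None passed after adjustment.

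Several of the other named transcripts with a small p show OZ2-21 and OZ2-1 at the level of the first positions. These genes were chosen after their values were seen. UGT84A1, which attaches glucose to sinapate and related acids, had 8.09 to 10.36 (median 9.44) at the first positions. At the last it had 10.06 in OZ2-21 and 9.84 in OZ2-1, against 3.57 in OZ2-36, 5.56 in OZ2-39, 3.33 in OZ2-40 and 1.77 in OZ2-38. The log2 difference of the means was -3.55 ± 1.19 (SE, unadjusted limma p = 0.0086), and -2.76 ± 1.02 without OZ2-38. The signals in OZ2-36, OZ2-39, OZ2-40 and OZ2-38 lie below the filter level of 5.69 and are poorly measured, so its size is uncertain. UGT78D2, a flavonoid glucosyltransferase, followed the same pattern, with 10.49 to 11.55 at the first positions, 11.42 in both OZ2-21 and OZ2-1, and 6.83 to 9.02 in the other 4 (difference -1.75 ± 0.63 SE, p = 0.013, and -1.70 without OZ2-38). PDC2, a pyruvate decarboxylase, had 7.90 to 9.60 at the first positions, 9.63 in OZ2-21, 8.87 in OZ2-1 and 5.40 to 6.85 in the other 4. Its difference was -1.67 ± 0.59 (SE), and -1.52 without OZ2-38.

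CHIL, a chalcone isomerase-like protein of flavonoid synthesis, had 10.30 to 11.52 at the first positions, 10.67 and 10.39 in OZ2-21 and OZ2-1, and 9.25 to 9.71 in the other 4. HYH, a light-signalling bZIP factor related to HY5, had 8.85 to 9.94 at the first and 5.80 to 9.60 at the last positions, the 2 lowest being OZ2-38 and OZ2-39 (6.58). It did not follow the pattern, since OZ2-21 (8.58) lay below every first array and OZ2-36 (8.89) among them. A list of flavonoid and phenylpropanoid genes, added after these values were seen, matched 6 genes of 23 on the array, and 5 were tested. All 5 had the lower mean at the last positions (median -1.57, and -1.18 without OZ2-38), 4 of them with an unadjusted p under 0.05, and 0 passed. As the list was built around CHIL, HYH and the glucosyltransferases it holds, its count supports nothing by itself.

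Further symbol-bearing genes were chosen for a small p in each direction, also after their values were seen, so both directions occur by choice. TMT3, a sugar carrier of the vacuole membrane, had log2 signals of 6.17 to 7.64 at the first and 3.52 to 7.30 at the last positions (difference -1.99 ± 0.60 SE, unadjusted limma p = 0.00443, and -2.09 without OZ2-38). Here OZ2-1 was the highest last array and OZ2-21 (5.36) lay with the others. The last-position mean of TMT3 (5.03) lay below the filter level of 5.69, so the size of its difference is uncertain. TIL, a temperature-induced lipocalin, had 11.20 to 13.27 and 8.25 to 11.99, with OZ2-38 lowest, and a difference of -1.60 ± 0.50 (SE) that was -1.16 without it. In the other direction DI21, a drought-induced gene, had 8.42 to 9.14 at the first positions, 8.86 in OZ2-21, 9.88 to 10.33 in 4 last arrays and 13.61 in OZ2-38, against an OZ1 median of 12.52. Its difference was 1.73 ± 0.56 (SE, unadjusted limma p = 0.00699) and 1.11 ± 0.29 without OZ2-38. PDF2.5, a small cysteine-rich protein, followed with 5.52 to 7.80 at the first positions, 5.89 to 10.17 in 5 last arrays and 12.32 in OZ2-38 (difference 2.36 ± 0.80 SE, and 1.69 without OZ2-38). LSM1A, a subunit of an RNA-binding ring, was the 1 of these genes whose groups did not overlap, at 7.79 to 8.61 and 8.65 to 9.77. Its difference was 0.73 ± 0.29 (SE, unadjusted limma p = 0.0214), and 0.57 without OZ2-38. Over all 13627 tested probe sets 25 (0.183%) did not overlap, and a choice by small p favours such genes.

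The UDP-glycosyltransferase family as a whole, picked by symbol, had 24 tested genes, UGT84A1 and UGT78D2 among them. Like the other lists, it was chosen with earlier results of these data known. Of these, 17 had the lower mean at the last positions. The median log2 difference was -0.61 (-0.49 without OZ2-38, and -0.15 on scan day 3 alone with 14 of 24 lower). An unadjusted p under 0.05 was found for 3, all lower, beside 3.52% lower over all tested probe sets, and 0 passed. UGT84A1 and UGT78D2 are among these 3 and were picked above for a small p, so the count is no separate support. The third, UGT74D1, had 9.39 to 10.48 at the first and 6.55 to 10.38 at the last positions (difference -1.37 ± 0.53 SE, and -1.47 without OZ2-38). Of 8 tau-class glutathione transferases, detoxifying enzymes, all 8 had the lower mean (median -0.53) and 0 passed. Without OZ2-38 7 of 8 were lower (median -0.58), and on scan day 3 alone 6 of 8 (median -0.41). No test was made of these families as sets.

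**Figure D5:**
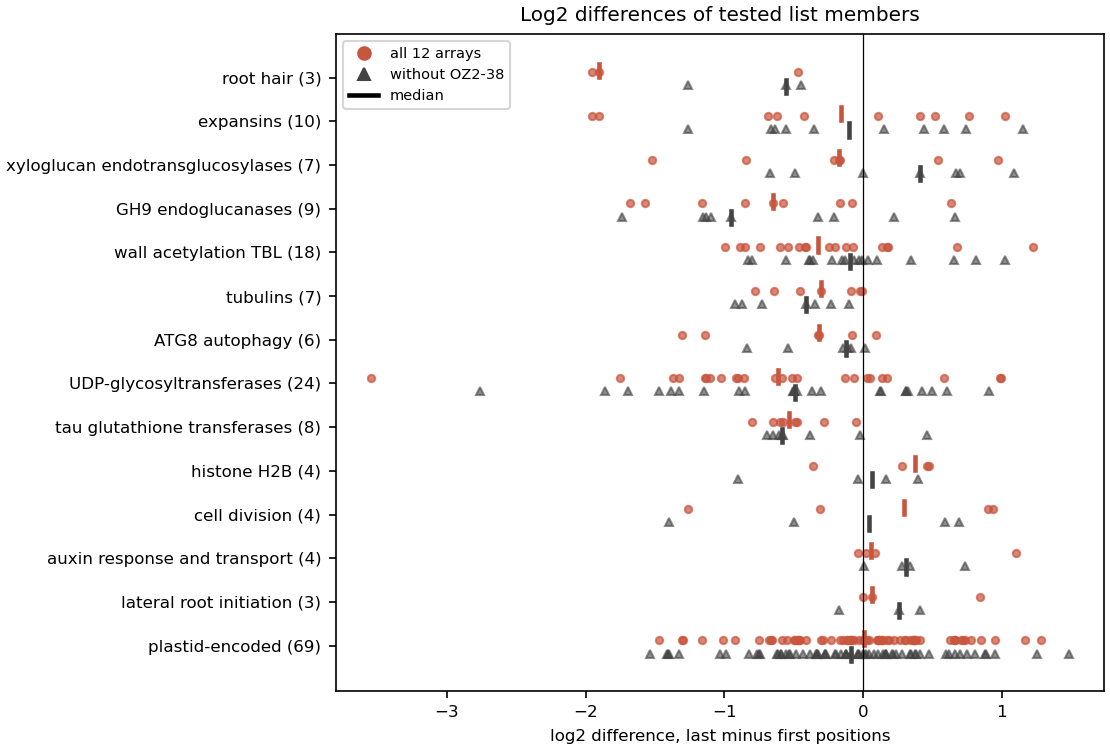
Log2 difference, last minus first positions, of each tested member of 14 gene lists (number tested in brackets), over all 12 arrays (red circles) and without OZ2-38 (dark triangles), with medians as bars. The root hair median moves from -1.90 to -0.56 without OZ2-38, while the tau glutathione transferase median is -0.53 and -0.58.

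Plastid-encoded genes, which read the organelle's own transcripts, scattered around 0. Of 69 tested 36 had the higher and 33 the lower mean at the last positions (median log2 difference 0.01, and -0.088 without OZ2-38). At an unadjusted p under 0.05 there were 3 higher and 1 lower, against 2.76% and 3.52% of all tested probe sets, and 0 passed. The 3 were ndhC (1.17 ± 0.38 SE), psbM (1.28 ± 0.53 SE) and psbI (0.73 ± 0.32 SE), and the 1 was rpl14 (-1.16 ± 0.48 SE). Without OZ2-38 these were 1.25, 1.48, 0.66 and -1.41. On scan day 3 alone 52 of the 69 plastid genes were lower at the last positions (median -0.65). On day 1 alone, which rests in part on OZ2-38, 61 of the 69 were higher (median 0.83). Neighbouring plastid genes share transcripts, so they are not independent of each other. Among nuclear photosystem and antenna genes, taken as shoot markers, 3 of 6 were higher, by at most 0.12, and 3 lower, down to -1.40. Their median was -0.26, and 0.018 without OZ2-38. At an unadjusted limma p under 0.05 there was 1, lower, and without OZ2-38 there were 0. On scan day 1 alone 5 of 6 were lower (median -1.69), and on day 3 alone 3 of 6 (median 0.048). PSBY had a difference of -1.11 that was -0.69 without OZ2-38. The 129 tested pseudogenes and transposable elements had a median of 0.02 (0.17 without OZ2-38), with 6 higher and 4 lower at an unadjusted p under 0.05. These counts stand beside the same 2.76% and 3.52% of all tested probe sets.

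Of the remaining lists, the MADS-box genes AGL18 (-0.68) and AGL16 (-0.24), 2 tested touch and wounding genes, 2 pectin methylesterases, 8 tetraspanins, 7 RALF-like peptides, 18 serine carboxypeptidase-like genes, 7 beta-glucosidases, 21 ubiquitin-conjugating or deubiquitinating enzymes and 11 nuclear RNA polymerase subunits held 0 passing members. The lists for endodermis, xylem, phloem, root cap with quiescent centre, histone H2A and mitochondrion-encoded genes matched no named probe set, so these were not checked here.

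Within scan days the 2 ends were compared on few arrays. A term for the scan day left the count of passing probe sets at 0 (smallest limma adjusted p 0.738). On day 3 alone, 3 first against 4 last arrays, 2 of 13627 (0.0147%) had a limma adjusted p of 0.0306, both lower at the last positions, and they are described for that reason after their values were seen. At an unadjusted p under 0.05 there were 996 (7.31%), of which 492 (3.61%) were higher and 504 (3.7%) lower. FATB, a plastid thioesterase that releases saturated fatty acids, had 11.33, 12.09 and 12.28 in the first arrays of that day and 8.93 to 9.98 in the last (difference -2.40). On day 1 its difference was 0.53, with OZ2-23 at 8.99 among the first arrays and OZ2-1 at 11.68 among the last. The other probe set has no gene name here and differed by -3.02 on day 3 and by 0.49 on day 1. Neither passed over all 12 arrays, where their differences were -1.19 and -1.71, or without OZ2-38, where they were -1.27 and -2.05.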

How the data were processed

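Each deposited intensity is a MAS5 signal of 1 probe set on 1 array, as the submitters' processing notes name the tool, without a version. The deposited arrays had trimmed means of 250.013 to 250.039, and no further normalization was applied. Values were taken to log2. Instrument records gave the scan day, used as a block and to compare the arrays of each day by themselves. Of 22810 probe sets 64 controls were left out, and those with a mean log2 over the 39 arrays above the 40th percentile (5.69, a signal of 51.8) were tested, 13627 in all. The array's probe table named 1 gene for 13513 probe sets, several for 503 and none for 8794, and 13436 matched TAIR10.1 by Entrez number. A gene was read from its brightest probe set.

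Last and first positions were compared in R 4.3.3 by limma 3.58.1 (moderated test with an intensity trend, 12 arrays, no covariate, two-sided, Benjamini-Hochberg over all 13627, threshold 0.05), and again without OZ2-38. Limma was tested on simulated data. Per-array values were compared with exact permutation tests over the 924 splits of 6 against 6 (462 without OZ2-38). P-values measure the spread between these arrays. Precision is limited by how many arrays each group holds. No detection calls were used. No 2 arrays were identical (highest correlation 0.878).

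The members, gene lists and rules were chosen with earlier results of these data known. Named genes were to be the 12 largest called differences each way or, with fewer, the 8 smallest unadjusted p each way, 2 members of each list with a call (no list had one), and 9 set genes (LBD16, PUCHI, WAG2, EXPA7, EXPA18, MT1C, HTB2, HTB4, ATG8E). Families were picked by symbol, and the plastid list by the locus tags of the annotation. Alternatives were quantile normalization, log2(value + 16), no filter, the 60th percentile, a filter on the 12 arrays, all 19 OZ2 arrays in the fit, weighting of arrays, a robust eBayes step, the scan day (as a block, or each day by itself), the control level as a term, and leaving out each array. The block without OZ2-38, and the region scale without it, were added after seeing the data.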

Additional observations from a re-analysis of the deposited data

Results flagged for a closer look

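In 5 of 56 group values examined (25 genes, the control level, the place between OZ1 and the OZ2 middle arrays, and the median signal, each in both groups of 6), 1 array lay far from the other 5 by Dixon's criterion (critical value 0.625). Chance gives this in about 1 of 20 groups. Of these 5, 4 were OZ2-38: EXPA7 was lowest there with a log2 signal of 3.93, MT1C lowest with 5.83, AT1G74490 highest with 9.84, and its place on the scale from OZ1 (0) to the OZ2 middle arrays (1) was -0.312. The fifth was AT5G23610, lowest in OZ2-36 with 5.49. Without OZ2-38 the log2 differences were -0.56 for EXPA7, -0.11 for MT1C and 2.41 for AT1G74490.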

How the results depend on the processing

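The count of 0 passing probe sets held under all alternatives except scan day 3 alone, which gave 2 lower. The smallest adjusted p was 0.288 to 0.888 on leaving out 1 array. Probe sets with an unadjusted p under 0.05 numbered 856, with 628 to 1263 on leaving out 1 array, 1326 with no filter (22746 tested) and 429 with all 19 OZ2 arrays in the fit. Of 616 alternative values of the 25 named genes 588 kept their direction. Of these genes 16 were picked by smallest p in these same arrays, which favours a kept direction. The 28 that did not belong to LBD16, PUCHI, WAG2, MT1C, HTB2 and HTB4, none of them called. LBD16 was 0.092 with quantile normalization, 0.013 with log2(value + 16), 0.13 with array weights, 0.0033 on scan day 3 and 0.23 with the scan day block without OZ2-38. PUCHI was -0.0028 with log2(value + 16) and -0.011 with array weights. WAG2 was -0.11 with the scan day block and -0.22 on day 3. MT1C was 0.22 on day 3 and 0.31 with the block without OZ2-38, and HTB2 was 1.08 on day 1. Leaving out 1 array gave -0.18 to 0.26 for LBD16, -0.28 to 0.29 for PUCHI, -0.24 to 0.34 for WAG2, -0.90 to 0.22 for HTB2 and -0.036 to 0.41 for HTB4. Over all settings the median log2 difference ran from -3.09 to -0.53 for root hair genes. For GH9 endoglucanases it ran from -1.15 to -0.081 (3 of 9 tested under the 60th percentile filter). It ran from -0.79 to -0.15 for UDP-glycosyltransferases and from -0.66 to -0.41 for tau glutathione transferases. For tubulins it ran from -0.68 to 0.26 and for plastid-encoded genes from -0.65 to 0.83. The causes were not tested. No paired analysis was possible because the 2 groups share no title number. Day 1 alone rests on 2 last arrays, 1 of them OZ2-38.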
